A study of Drosophila melanogaster with 28 samples.

Results

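The 8 Hox genes of Drosophila melanogaster were examined as a group: lab, pb, Dfd, Scr and Antp of the Antennapedia complex, and Ubx, abd-A and Abd-B of the bithorax complex, all on chromosome arm 3R. Their members were the ChIP-seq peaks of HMR that lay in a Hox gene or within 10 kb of it, together with every peak between Ubx and Abd-B, so that the regulatory DNA between these genes was included. Peaks of the 18 deposited lists that shared at least 1 bp were joined into 12046 regions, and 64 of these were Hox regions, 31 in the Antennapedia complex and 33 in the bithorax complex. They held 223 of the 46127 listed peaks. The peaks were chosen by position alone, so their number in each list, their place and their order in the lists were all free to vary.

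The cells were SL2, a cell line of embryonic origin, which keep their endogenous HMR. They carried a FLAG- and HA-tagged Hmr, either full length (HMRwt-tg) or truncated at the C-terminus (HMRdC-tg), behind the metallothionein promoter, and Myc-tagged LHR, and all groups were induced with 250 µM CuSO4 for 20 to 24 h. Anti-FLAG, which sees only the ectopic protein, has 5 libraries of each construct, and anti-HMR, which sees endogenous and ectopic protein together, has 4 of each. Every anti-HMR library has an anti-FLAG partner prepared on its chromatin, and replicate 5 of each construct with anti-FLAG, made with the NEBNext kit, has none. The truncated protein lacks the BESS domain, through which HMR contacts its partner LHR, and the comparison of constructs asks whether HMR is found at the same sites without it. ChIP-seq lists hold no expression, so that the identity of the cells could not be checked against marker genes.

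Hox genes encode homeodomain transcription factors that give the segments of the body axis their identity, and their order on the chromosome follows the order of the segments they pattern. In the bithorax complex, long stretches of DNA between the genes carry the enhancers of each segment. Boundary elements, several of them bound by insulator proteins such as CTCF, keep these stretches apart, and Polycomb and trithorax group proteins maintain the silent or active state of the genes. HMR is a chromatin protein known for its place near centromeres and for its part in the lethality of hybrid males. It is also found at many sites on the chromosome arms.

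A list holds peak positions alone, at a width of 200 bp but for 1 peak, without a height, a score or a read count. The depth in reads is therefore unknown, and a region that a list lacks may have missed the threshold of that library. The lists held 465 to 4427 peaks for anti-FLAG in HMRwt-tg (5 libraries), 1093 to 3096 for anti-FLAG in HMRdC-tg (5 libraries), 1150 to 9049 for anti-HMR in HMRwt-tg (4 libraries) and 1640 to 3184 for anti-HMR in HMRdC-tg (4 libraries). The shortest list is replicate 2 of anti-FLAG in HMRwt-tg, and the longest is replicate 3 of anti-HMR in HMRwt-tg. Both touch the results below and are named where they do. Lines of a list are in no order of position, but their order was reproducible between anti-FLAG lists over the regions they shared (median Spearman's rho across regions 0.840, lowest 0.609, over 45 pairs of lists). Among anti-HMR lists the median was 0.745 (lowest 0.396, 28 pairs), and between the antibodies it was 0.601 (lowest -0.08, 80 pairs). List position was therefore used as a rank, from 0 for the first line to 100 for the last, although the files do not say what the order means. Replicate 3 of anti-HMR in HMRdC-tg stood apart. Its rho with the other anti-HMR lists was 0.396 to 0.490, whereas these reached at least 0.529 among themselves. The anti-HMR tests between constructs and the tests over chromatin pairs include this list.

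5 regions carry most of the description, and the 200 bp at their centres are printed here as the plus strand of dm6, 5′ to 3′, from the reference genome. They are the 2 regions called in all 18 lists, the most often called region of pb, the region of Antp with the highest share of anti-HMR lists, and the region of the bithorax complex called mostly with anti-FLAG. Capitals mark matches, on either strand, to the core motifs of insulator and Polycomb-related factors: CGATA of BEAF-32, AGGNGGC of CTCF, GAGAG of GAGA factor, GCCAT of Pho and TGCATAC of Su(Hw).
Between bxd and abd-A, 3R:16798544-16798743: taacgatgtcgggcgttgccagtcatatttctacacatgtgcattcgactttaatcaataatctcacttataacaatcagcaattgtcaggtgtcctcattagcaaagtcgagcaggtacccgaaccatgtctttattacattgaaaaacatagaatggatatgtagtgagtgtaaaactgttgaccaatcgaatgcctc
Abd-B intron, 5′ side, 3R:16969643-16969842: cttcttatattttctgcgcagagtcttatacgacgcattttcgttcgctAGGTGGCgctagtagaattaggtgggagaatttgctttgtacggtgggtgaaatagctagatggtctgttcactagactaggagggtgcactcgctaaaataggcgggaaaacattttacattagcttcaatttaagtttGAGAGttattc
pb intron, 3R:6708951-6709150: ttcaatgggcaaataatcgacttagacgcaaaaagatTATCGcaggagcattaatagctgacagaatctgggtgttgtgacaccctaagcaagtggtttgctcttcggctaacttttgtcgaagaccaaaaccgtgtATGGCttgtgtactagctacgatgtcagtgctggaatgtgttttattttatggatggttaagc
Antp intron, 3R:6912281-6912480: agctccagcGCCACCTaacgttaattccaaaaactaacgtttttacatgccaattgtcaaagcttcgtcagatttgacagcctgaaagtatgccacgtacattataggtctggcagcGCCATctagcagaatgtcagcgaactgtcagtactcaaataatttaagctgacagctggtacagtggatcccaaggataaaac
iab8 intron, 3R:16919144-16919343: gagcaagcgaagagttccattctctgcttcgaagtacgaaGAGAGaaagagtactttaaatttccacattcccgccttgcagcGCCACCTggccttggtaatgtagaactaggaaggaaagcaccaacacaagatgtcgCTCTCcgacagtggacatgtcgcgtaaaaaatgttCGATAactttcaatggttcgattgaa
The Abd-B, Antp and iab8 sequences each hold 1 match to the CTCF core, whereas the sequence between bxd and abd-A holds none of the 5 motifs.

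Most Hox regions were found once. Of the 64, 47 were called in 1 list only, and 39 of these were in the longest list, replicate 3 of anti-HMR in HMRwt-tg. That is 60.9% of the Hox regions, beside 42.8% of all regions that were called in this list alone. Joined without that list, the Hox regions numbered 25. A further 6 regions were called in 2 to 7 lists, and 11 were called in at least 9 of the 18 lists, which is 17.2% beside 16.9% of all regions. These 11 were spread over both complexes, 5 in the Antennapedia complex and 6 in the bithorax complex. By length, the bithorax complex with 10 kb on each side held 1.79 such regions per 100 kb and the Antennapedia gene windows 1.71, beside 1.48 over 2L, 2R, 3L and 3R, heterochromatin included. From Ubx to Abd-B without the 10 kb on each side, the value was lower than over these arms, at 1.27 per 100 kb.

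**Figure D1:**
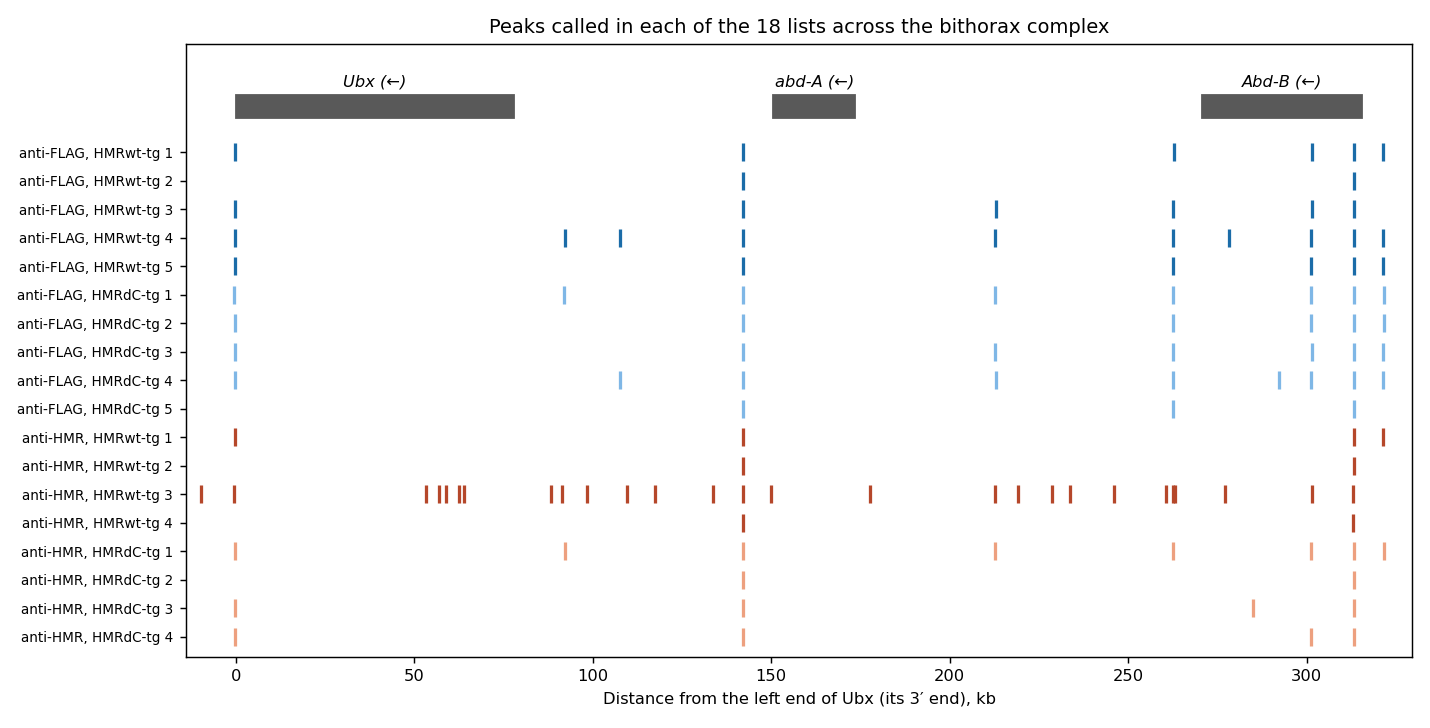
Peaks of each list across the bithorax complex, drawn at their midpoints against the distance in kb from the left end of Ubx. Each row is 1 library (dark blue and light blue for anti-FLAG in HMRwt-tg and HMRdC-tg, dark red and light red for anti-HMR in HMRwt-tg and HMRdC-tg), grey boxes are the genes and arrows their direction. The marks near 142 kb and 313 kb are present in all 18 rows, and most isolated marks are in replicate 3 of anti-HMR in HMRwt-tg.

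The 2 Hox regions called in 18 of 18 lists, a group that makes up 0.98% of all regions, were both in the bithorax complex. One lay at 3R:16798533-16798827 (dm6) in intergenic DNA, between the noncoding RNA gene bxd and abd-A, which patterns the anterior abdomen, and 8387 bp past the 3′ end of abd-A. The other lay at 3R:16969596-16969909 in an intron of Abd-B, the gene of the posterior abdomen, 2327 bp inside its 5′ end and 1168 bp from the nearest start of an Abd-B transcript.

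The region between bxd and abd-A stood near the top of nearly every list. With anti-FLAG its list position was 8.03, 56.03, 4.97, 3.41 and 6.80 in HMRwt-tg, and 6.33, 8.52, 5.81, 4.23 and 14.1 in HMRdC-tg. With anti-HMR it was 4.41, 7.22, 1.07 and 4.95 in HMRwt-tg, and 3.71, 4.03, 5.31 and 4.70 in HMRdC-tg. A single list placed it low, the anti-FLAG list of 465 peaks, and the constructs overlapped with either antibody. The difference between constructs (HMRdC-tg minus HMRwt-tg) was -8.05 with anti-FLAG (exact permutation test, 5 against 5, p = 0.794, adjusted p = 0.995) and 0.0225 with anti-HMR (exact permutation test, 4 against 4, p = 1).

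The region in the Abd-B intron was also high in the anti-FLAG lists, at 14.5, 38.4, 9.89, 5.47 and 15.6 in HMRwt-tg and at 5.91, 9.53, 6.08, 5.15 and 16.4 in HMRdC-tg. With anti-HMR it ranged more widely, at 33.4, 55.0, 0.984 and 16.2 in HMRwt-tg and at 14.5, 33.6, 54.6 and 12.5 in HMRdC-tg. On this scale the constructs overlapped, with a difference of -8.15 for anti-FLAG (exact permutation test, 5 against 5, p = 0.238, adjusted p = 0.747) and of 2.39 for anti-HMR (exact permutation test, 4 against 4, p = 0.971, adjusted p = 1). The scale of 100 divides by the length of a list, and the anti-FLAG result changed on scales that do not, which were added after the lists had been seen. A line number still cannot exceed the length of its list, so it is not free of list length. Counted in lines from the top, the Abd-B intron stood at line 343, 179, 244, 243 and 395 in HMRwt-tg and at line 184, 171, 116, 136 and 180 in HMRdC-tg, so that only the 465-peak list of HMRwt-tg lay within the range of HMRdC-tg (exact permutation test, p = 0.0238, adjusted p = 0.0921). As a rank among the 392 regions called in all 10 anti-FLAG lists it was 222, 159, 183, 176 and 236 in HMRwt-tg and 147, 144, 100, 112 and 145 in HMRdC-tg, without overlap and higher up in HMRdC-tg, with a difference of -65.6 ranks (exact permutation test, p = 0.00794, adjusted p = 0.0291). The adjusted call was lost without any of 5 lists (replicate 2 of HMRwt-tg, replicates 1 to 4 of HMRdC-tg), with adjusted p-values of at most 0.0558 in the exact permutation tests. With all lists, 145 of the 392 regions passed by rank after adjustment.

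The 4 other regions of the bithorax complex called in at least 9 lists lay in introns or intergenic DNA. Just past the 3′ end of Ubx, the gene of the third thoracic segment, a region at 3R:16656108-16656455 began 168 bp beyond the gene and was called in 13 lists, 8 of 10 with anti-FLAG and 5 of 8 with anti-HMR. Between abd-A and Abd-B, a region at 3R:16919124-16919420 in an intron of the noncoding RNA gene iab8, 7792 bp past the 3′ end of Abd-B, was called in 11. In the middle of Abd-B, the intronic region at 3R:16957792-16958070 was called in 11 lists, 4 of 5 in each construct with anti-FLAG and 1 of 4 and 2 of 4 with anti-HMR. Upstream of Abd-B, a region at 3R:16977961-16978243 was called in 9 lists, and it lay 318 bp from a transcript start of the neighbouring gene Actn3. A further region, at 3R:16869250-16869542 in another intron of iab8, was called in 7 lists.

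Within the long body of Ubx itself, 77.8 kb from end to end, no list but replicate 3 of anti-HMR in HMRwt-tg had a peak, and that list had 5. Within abd-A no list had a peak. Boundary elements are known between the regulatory stretches of the complex, but the annotation used here does not place them, and no region was assigned to one.

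**Figure D2:**
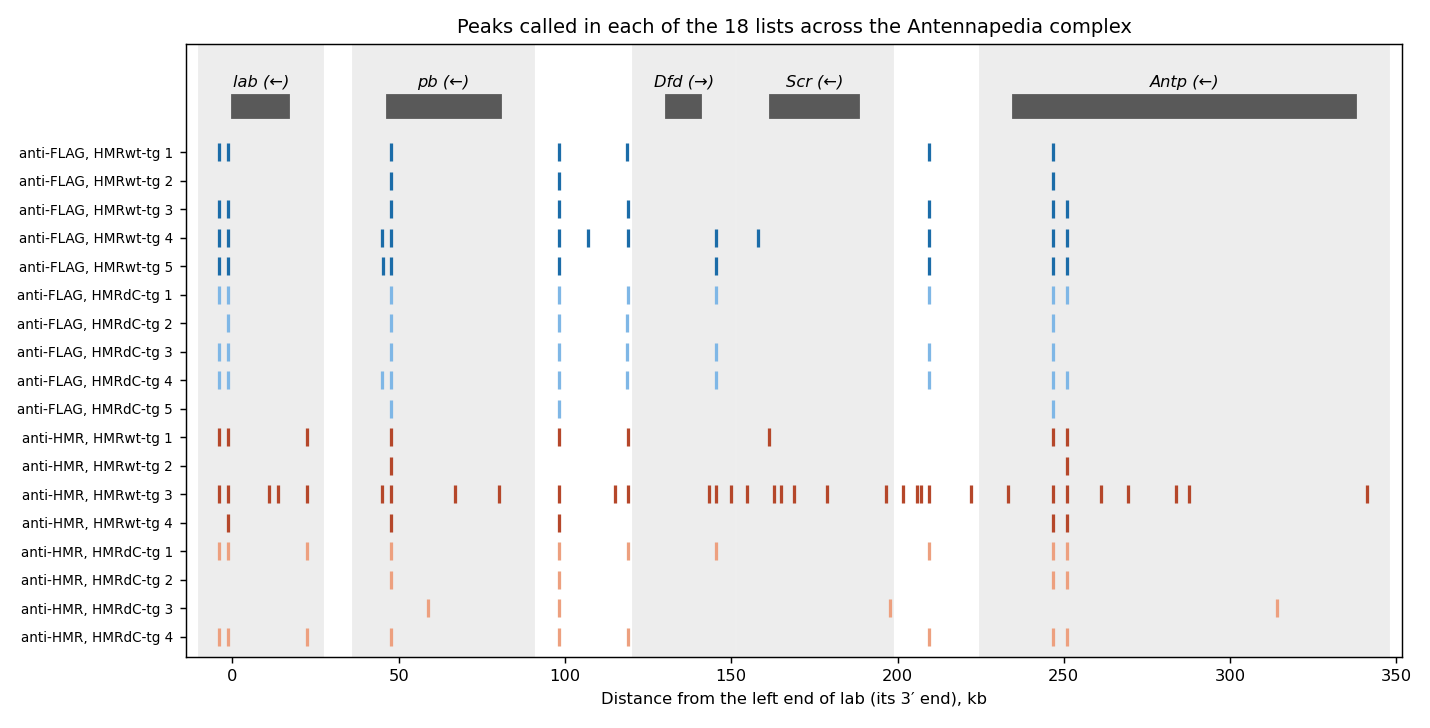
Peaks of each list across the Antennapedia complex, drawn at their midpoints against the distance in kb from the left end of lab. Colours and symbols are as in the map of the bithorax complex, and grey bands are the genes with 10 kb on each side. The columns of marks at pb, near 48 kb, and in Antp, near 247 kb, run through 17 and 16 of the 18 rows, whereas the bands of Dfd and Scr hold no mark in most rows.

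In the Antennapedia complex, pb and Antp had peaks within the gene in all 18 lists, and Dfd had none in any. In replicate 3 of anti-HMR in HMRdC-tg these peaks lay at 3R:6720174-6720373 (pb) and 3R:6975547-6975746 (Antp). No other list called either of them. The gene pb, which patterns the mouthparts, carried a region at 3R:6708930-6709191 in an intron, 1130 bp inside its 3′ end, called in 10 of 10 anti-FLAG and 7 of 8 anti-HMR lists. It was among the highest regions of the lists. Its position with anti-FLAG was 1.66, 10.3, 1.79, 1.40 and 0.869 in HMRwt-tg and 3.62, 7.63, 7.66, 9.30 and 20.1 in HMRdC-tg. The shortest list of each construct gave its lowest place there, and the constructs overlapped only through the 465-peak list. The difference of 6.44 on the scale of 100 did not pass the test (exact permutation test, 5 against 5, p = 0.0873, adjusted p = 0.532). On the scales that are not divided by list length, the constructs did not overlap. The pb region stood at line 40, 49, 45, 63 and 23 in HMRwt-tg and at line 113, 137, 146, 245 and 220 in HMRdC-tg (exact permutation test, p = 0.00794, adjusted p = 0.0533). Among the 392 regions called in all 10 anti-FLAG lists its rank was 32, 44, 38, 52 and 18 in HMRwt-tg and 99, 116, 125, 180 and 167 in HMRdC-tg, lower down by 100.6 ranks with the truncated protein (exact permutation test, p = 0.00794, adjusted p = 0.0291). Without the 465-peak list, when 1011 regions were called in every list, the difference was 128.8 ranks and the adjusted p 0.0713 (exact permutation test), and the adjusted call held without any other single list. With all lists, 145 of the 392 regions passed by rank after adjustment. With anti-HMR the pb region stood at 9.31, 42.5, 0.387 and 8.09 in HMRwt-tg and at 6.75, 20.5 and 12.6 in the 3 HMRdC-tg lists that called it.

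Antp, which specifies the thorax, held a pair of regions in its 3′ part, less than 5 kb apart. The region at 3R:6908123-6908376 overlaps an exon with 3′ UTR of Antp and was called in 10 of 10 anti-FLAG and 6 of 8 anti-HMR lists, and its median position was 18.6 with anti-FLAG and 30.7 with anti-HMR. The region at 3R:6912235-6912577 in the adjoining intron was called in 5 of 10 anti-FLAG and 7 of 8 anti-HMR lists, with median positions of 43.7 and 13.7. So the neighbours stood in opposite order with the antibodies, by presence as by position. By presence with anti-HMR this order is only 6 against 7 of 8 lists. Over the chromatin pairs neither region differed between antibodies by presence (exact McNemar test, p = 0.5 for the exon and 0.375 for the intron). Both also lie within CG46458, a gene on the same strand.

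The remaining genes of the complex had less. In the window of lab, the most anterior gene, regions at 3R:6657346-6657608 and 3R:6659974-6660297 were called in 11 and 13 lists, but both overlap the 5′ UTR of another gene, CG1307 and agt, with centres 18 and 17 bp from its transcript start. Within lab only the longest list had peaks, 2 of them. For Dfd, which patterns the posterior head, the region called in most lists was 4300 bp past its 3′ end, at 3R:6806728-6806992, in 7 lists (2 of 5 and 3 of 5 with anti-FLAG, 1 of 4 and 1 of 4 with anti-HMR). Scr, the gene of the labial and first thoracic segments, had 9 regions in its window and each was called in 1 list only, 6 of them in the longest.

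The rule of 10 kb left out neighbours that were called as often. Inside the complex but 17487 bp from the nearest Hox gene, a region at 3R:6759550-6759869 lay 217 bp from the start of bcd, the anterior determinant of the embryo, and was called in 17 lists. A region 11487 bp from Dfd was called in 11 lists, and one 20896 bp from Scr, beyond ftz, in 10. Among the non-Hox genes of the complex, 4 of 5 (zen, bcd, Ama and ftz, but not zen2) had a peak within 10 kb in at least 9 lists, beside 55.5% of all protein-coding genes. The windows of zen, bcd and Ama share the bcd region, and their 17 lists are the 17 that called it.

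Gene windows gave the same picture over the 18 lists. With 10 kb on each side, the number of lists with a peak was 18 for pb, Antp, abd-A and Abd-B, 13 for lab and for Ubx, 7 for Dfd and 4 for Scr. At least 9 lists thus held a peak for 6 of 8 Hox genes, beside 55.5% of all protein-coding genes, and all 18 lists did for 4 of 8, beside 4.61%. For pb and Antp, replicate 3 of anti-HMR in HMRdC-tg counts only through regions that no other list called. Hox windows are long, with a median of 50.6 kb against 22.2 kb over protein-coding genes, and per length they held fewer peaks, with a median of 2.05 peaks per 100 kb and list against 2.87.

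Most of the often called Hox regions lay away from promoters, and 3 of the 11 (27.3%) had their centre within 500 bp of an annotated transcript start, and these belonged to CG1307, agt and Actn3. None was within 500 bp of a Hox transcript start, and the nearest was the Abd-B intron at 1168 bp. Among the other 1607 regions of 2L, 2R, 3L and 3R called in at least 9 lists, 79.5% lay within 500 bp of a start, and the median distance was 81 bp against 1957 bp for the 11 Hox regions. These shares are a description, since the Hox regions were chosen by place.

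The motif of CTCF was found in 3 of the 11 central sequences (27.3%), those of Antp, iab8 and the 5′ side of Abd-B printed above, beside 9.23% of the 2036 regions called in at least 9 lists. CGATA was found in 5 of 11, beside 50.6% of all, GAGAG in 3 of 11, beside 14.3%, and GCCAT in 5 of 11, beside 34.7%. TGCATAC was in none of the 11, beside 4.52%. A match of a few letters is no evidence of binding, and 11 sequences are too few to read a difference from.

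**Figure D3:**
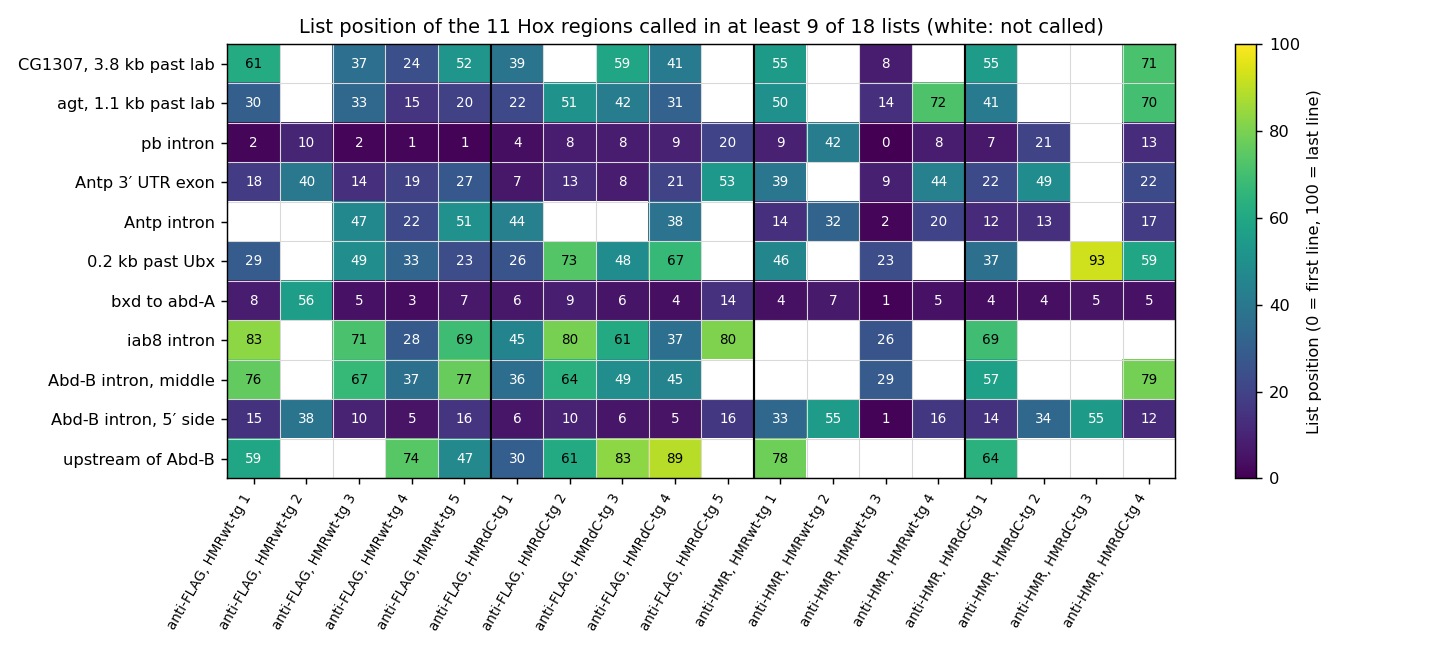
List position of the 11 Hox regions called in at least 9 of 18 lists. Each column is 1 library, each row a region from lab to Abd-B, and the number and colour give the position from 0 (first line) to 100 (last line), with white where the list has no peak. The row between bxd and abd-A is filled in every column, with 1 value above 15, in the anti-FLAG list of 465 peaks, and the iab8 row is white in 6 of 8 anti-HMR columns.

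By presence, the often called Hox regions were found in equal numbers of HMRwt-tg and HMRdC-tg lists, to within 1. With anti-FLAG, 7 of the 11 often called regions had the same number of lists in both constructs and 4 differed by 1 list. With anti-HMR 6 were equal and 5 differed by 1. These regions were chosen by their number of lists over both constructs, which favours regions called in both. No share over all often called regions is set beside these counts, so they are a description. Anti-HMR also sees endogenous HMR, so its equal counts do not show the truncated protein at these regions. Of the Hox regions in at least 2 lists, none of 16 differed between constructs with anti-FLAG (Fisher's exact test, unadjusted p under 0.05, adjusted over 3496 regions: none), beside 2.26% of all regions tested at the unadjusted level. None of 14 differed with anti-HMR, where 4 lists against 4 gave no call in any region (0%). After Benjamini-Hochberg adjustment no region of the whole table passed with either antibody, and the smallest unadjusted p of any region was 0.00794 with anti-FLAG and 0.143 with anti-HMR. List position gave none of 8 Hox regions with anti-FLAG, beside 10.8% of 1450 regions tested, and none of 2 with anti-HMR, beside 0.254% of 393 (exact permutation tests, unadjusted p under 0.05).

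On the scales that are not divided by list length, the order of the regions differed between constructs with anti-FLAG, at Hox regions as elsewhere. By line number 4 of 8 Hox regions passed at the unadjusted level (pb lower down in HMRdC-tg, and the 5′ and middle Abd-B introns and the iab8 region higher up), beside 37.6% of 1450 regions, and none of the 1450 passed after adjustment. By rank 2 of 4 passed (the pb region and the 5′ Abd-B intron), beside 49.7% of 392 regions at the unadjusted level. Both also passed after adjustment, as did 145 of the 392 regions in all. Of these 392, 22.4% stood lower down in HMRdC-tg, as pb did, and 27.3% higher up, as the Abd-B intron did. The region between bxd and abd-A passed on neither scale, at a mean line of 179.8 in HMRwt-tg and 145.6 in HMRdC-tg. With anti-HMR neither of the 2 Hox regions tested passed by line or by rank, beside 0.509% and 0.763% of 393 regions (exact permutation tests, all at an unadjusted p under 0.05).

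The whole stretch from Ubx to Abd-B, 315.6 kb long, held 2 to 25 peaks in each list. With anti-FLAG it held 4, 2, 5, 8 and 4 peaks in HMRwt-tg and 6, 4, 5, 7 and 3 in HMRdC-tg. With anti-HMR it held 2, 2, 25 and 2 peaks in HMRwt-tg and 6, 2, 3 and 3 in HMRdC-tg. The constructs overlapped with either antibody, and the count of 25 is that of the longest list.

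Set against the length of the list, the stretch held 2.28 ± 1.14 peaks per 1000 (SD, n = 5) in HMRwt-tg and 2.45 ± 0.345 (SD, n = 5) in HMRdC-tg with anti-FLAG. The difference of 0.162 did not exceed that spread (p = 0.865 by an exact two-sided permutation test, which can reach 0.00794 at the least). With anti-HMR it held 1.63 ± 0.865 (SD, n = 4) and 1.52 ± 0.276 (SD, n = 4), a difference of -0.113 (p = 0.83 by the same exact test, with 0.0286 as the smallest possible). The anti-FLAG result rests on the 465-peak list, whose 2 peaks are 4.30 per 1000. Without it HMRdC-tg was higher by 0.666 (exact permutation test, 4 against 5, p = 0.0317), and without the 2 NEBNext libraries the difference was -0.0887 (exact permutation test, p = 0.971). Without the longest list the anti-HMR difference was 0.263 (exact permutation test, p = 0.429).

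**Figure D4:**
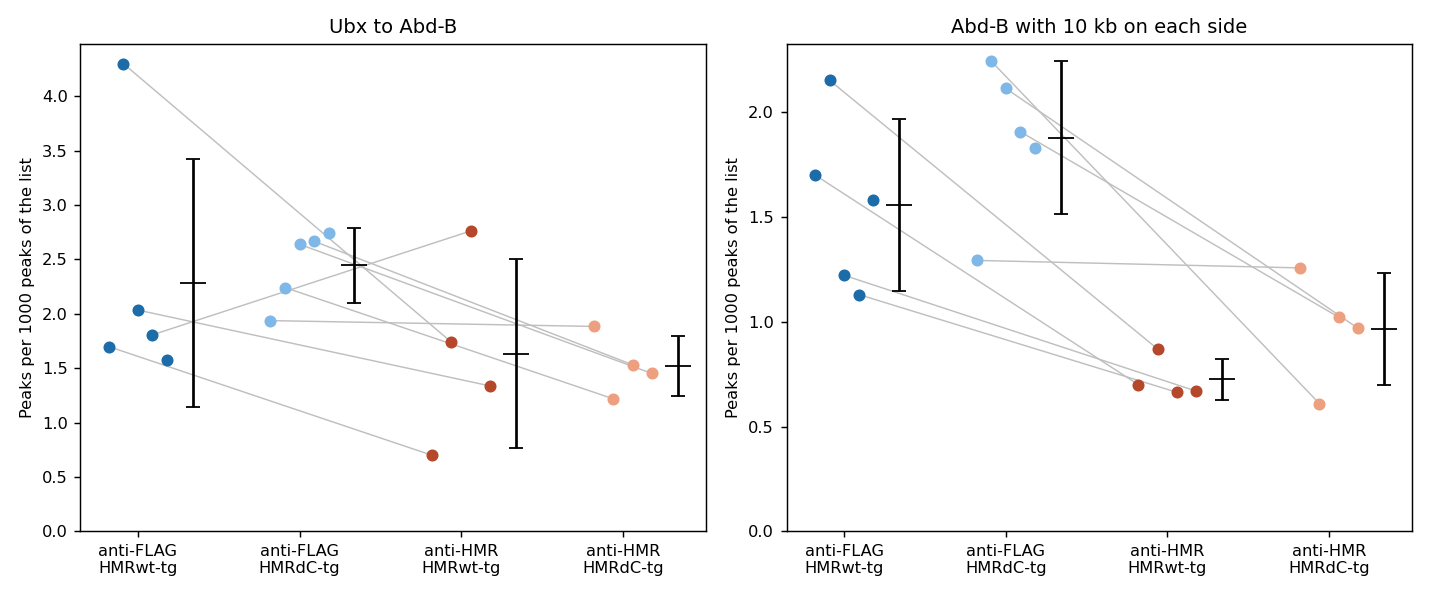
Peaks per 1000 peaks of each list between Ubx and Abd-B (left) and in Abd-B with 10 kb on each side (right). Points are libraries, black bars the mean ± SD of 5 (anti-FLAG) or 4 (anti-HMR) libraries, and grey lines join lists of the same chromatin. In the Abd-B window all 8 lines run down from anti-FLAG to anti-HMR, and between Ubx and Abd-B 7 of 8 do. Values are divided by list length, and in plain numbers of peaks anti-FLAG was not higher at Abd-B in all 8 pairs.

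Between the antibodies, anti-FLAG gave more peaks per 1000 at Abd-B in each of the 8 chromatin pairs. In plain numbers it did not do so in all 8, and the difference per 1000 did not pass adjustment. Over these pairs, the stretch from Ubx to Abd-B had 0.838 ± 1.01 more peaks per 1000 with anti-FLAG than with anti-HMR (SD, n = 8 pairs), and anti-FLAG was higher in 7 of 8 pairs (exact sign-flip permutation test, p = 0.0391, adjusted over the 3 comparisons 0.117). The call at the unadjusted level was lost without any of 5 single pairs (exact permutation test, p = 0.0781 each) and with every list cut to 465 lines (p = 0.25, exact permutation test). In plain numbers of peaks the difference was -0.5, since the pair with the longest list held 25 peaks against 8.

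In the window of Abd-B alone, anti-FLAG gave 1.70, 2.15, 1.22, 1.13 and 1.58 peaks per 1000 in HMRwt-tg and 1.29, 2.24, 2.11, 1.91 and 1.83 in HMRdC-tg. Anti-HMR gave 0.700, 0.870, 0.663 and 0.668 in HMRwt-tg and 1.26, 0.610, 1.02 and 0.968 in HMRdC-tg. All anti-FLAG values but 2 were above every anti-HMR value. Plain numbers of peaks were also set side by side for each pair, in the order of the anti-FLAG replicates. In HMRwt-tg, anti-FLAG and anti-HMR had 4 and 2, 1 and 1, 3 and 1, and 5 and 6 peaks. In HMRdC-tg they had 4 and 4, 4 and 1, 4 and 2, and 5 and 2. Where anti-FLAG did not have more peaks, its higher value per 1000 came from the longer anti-HMR list. The paired difference was 0.874 ± 0.507 (SD, n = 8 pairs), higher with anti-FLAG in 8 of 8 pairs (exact sign-flip permutation test, p = 0.00781, the smallest possible), and the adjusted p over 17581 gene windows was 0.117. Of those windows, 23.2% had an unadjusted p under 0.05, 15.3% with anti-FLAG higher, and 1.18% were higher with anti-FLAG in all 8 pairs. None of the 17581 passed after adjustment. In the other 7 Hox windows the unadjusted test made no call. Between constructs, none of the 7 Hox windows tested with anti-FLAG and none of the 8 with anti-HMR differed, adjusted or not (exact permutation tests), beside 6.25% and 0.167% of all windows at the unadjusted level.

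In plain numbers of peaks, the regions behind the Abd-B difference were the ones called less often. The iab8 region had a peak in 9 of 10 anti-FLAG lists (4 of 5 in HMRwt-tg, 5 of 5 in HMRdC-tg) and in 2 of 8 anti-HMR lists (1 of 4 in each construct). In 5 chromatin pairs it was called with anti-FLAG alone and in none with anti-HMR alone (exact McNemar test, p = 0.0625, adjusted p = 0.473). The mid-Abd-B intron and the region upstream of Abd-B were called with anti-FLAG alone in 4 pairs each (exact McNemar test, p = 0.125 each). The reverse was seen 5120 bp upstream of lab, at 3R:6683710-6684037, a region called in 0 of 10 anti-FLAG and 4 of 8 anti-HMR lists (exact McNemar test, p = 0.125). None of the 17 Hox regions tested passed at the unadjusted level, beside 7.4% of 4795 regions, and no region of the table passed after adjustment.

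Cutting every list to its first 465 lines, which compares the antibodies at the same list length, left 6 Hox regions. Among them, the region at 3R:16941598-16941797 in an Abd-B intron was called only in replicate 3 of anti-HMR in HMRdC-tg. The region between bxd and abd-A was called in 18 of 18 cut lists and the pb intron in 10 of 10 anti-FLAG and 6 of 8 anti-HMR lists. The Abd-B intron on the 5′ side was called in 10 of 10 anti-FLAG and 4 of 8 anti-HMR lists. The pair in Antp separated further: the 3′ UTR exon was called in 6 of 10 anti-FLAG and 1 of 8 anti-HMR lists, and the intron in 0 of 10 and 7 of 8. The intron was called with anti-HMR alone in 7 of 8 pairs (exact McNemar test, p = 0.0156, adjusted p = 0.113), and the exon with anti-FLAG alone in 5 (exact McNemar test, p = 0.0625, adjusted p = 0.17), where 24.3% of 1001 regions had an unadjusted p under 0.05.

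The regions called in every list could be compared by position as well, a test that was added after the lists had been seen. The region between bxd and abd-A stood lower with anti-FLAG, by 7.74 on the scale of 100 and in 7 of 8 pairs (exact sign-flip permutation test, adjusted p = 0.0318 over 122 regions called in all 16 paired lists). Leaving out the pair of the 465-peak list reduced this to 1.88 (exact permutation test, adjusted p = 0.0608), and the call was also lost without any of 5 other pairs, where the difference over the 7 pairs left was 8.21 to 8.69. The Abd-B intron stood higher with anti-FLAG in 7 of 8 pairs, with a difference of -15.7 (exact sign-flip permutation test, adjusted p = 0.0238). Of the 122 regions, 77% passed at the unadjusted level, made up of 66.4% with anti-FLAG higher and 10.7% with anti-HMR higher, so Abd-B moved with the majority. After adjustment 93 of the 122 passed. In line numbers the Abd-B intron stood higher with anti-FLAG, with a difference of -330.8 lines (exact permutation test, adjusted p = 0.0555), and the region between bxd and abd-A stood 65.8 lines lower (exact permutation test, adjusted p = 0.0127). When positions were replaced by ranks among these 122 regions, the difference at Abd-B was -0.5 ranks (exact permutation test, p = 0.938), whereas that between bxd and abd-A was 47.4 ranks (exact permutation test, p = 0.00781, adjusted p = 0.0203). No share of the 122 regions is set beside the calls by line number and by rank, so they are not particular to this region on these values.

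Regions like that between bxd and abd-A in position over the 18 lists were sought only outside the Hox regions, and the nearest 3 were taken. They were an intergenic region of 2R, 5621 bp from the start of CG9380, an intronic region of sick on 2L, and an intergenic region of 3R, 5390 bp from Jhbp1, with mean absolute differences of 3.69, 4.13 and 5.05 in list position. All 3 were called in 18 of 18 lists, and each lay over 4 kb from the nearest transcript start.

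Polycomb and trithorax group genes, whose products act on the Hox complexes, were counted in windows of the same kind. Of 20 Polycomb group genes, 17 had a peak within 10 kb in at least 9 lists, and of 11 trithorax group genes 9 had, beside 55.5% of protein-coding genes. Window lengths, and peaks that neighbouring windows may share, were not taken into account in these counts. All 18 lists held a peak for 2 of the 20 Polycomb group genes (Pc and jing) and for 1 of the 11 trithorax group genes (trx), beside 4.61% of protein-coding genes. The fewest lists were 2 in the Polycomb group, for Sce, and 7 in the trithorax group, for Trl. Of the Hox cofactors, exd had a peak in 16 lists and hth in 2. Over the antibody pairs, 5 Polycomb group windows were higher with anti-FLAG and 1 with anti-HMR at an unadjusted p under 0.05, among 20 tested, and 2 and 0 among the 11 of the trithorax group, beside 23.2% of all windows, 15.3% with anti-FLAG higher. The 1 higher with anti-HMR was Su(z)2, with a peak in 0 of 10 anti-FLAG and 8 of 8 anti-HMR lists (exact sign-flip permutation test, p = 0.00781, adjusted p = 0.117). Between constructs 1 Polycomb group window (ph-d) and 1 trithorax group window (mor) were higher in HMRdC-tg with anti-FLAG among 18 and 11 tested, and 1 of 19 (Pc) was lower with anti-HMR, beside 6.25% and 0.167% of all windows, and none passed after adjustment.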

How the data were processed

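HMR was profiled by ChIP-seq, and 18 of the 28 libraries have a peak list. The 10 inputs were the background for peak calling. Per the labels and the methods, the authors aligned single-end reads of 50 bp to the dm6 assembly (Bowtie2 2.2.9), filtered them by a mapping quality of 2 (SAMtools 1.3.1), which removes reads from repeats, and called peaks per replicate with HOMER 4.9 (factor style, -F 2, size 200). Each deposited list has chromosome, start and end only, so depth is unknown. Positions were read as BED intervals and printed from 1, with genes from Ensembl release 115 and sequence from RefSeq Release 6, both of which use dm6 coordinates.

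Antibodies were paired by the input their lists share. Tests were exact permutation tests on peaks per 1000 listed peaks (252 splits for 5 against 5, 70 for 4 against 4, 256 sign patterns for 8 pairs) and on list positions, and Fisher's and McNemar's exact tests per region, with Benjamini-Hochberg adjustment over all regions or annotated genes with a peak in at least 2 lists of the comparison (for position, regions in at least 4 lists of each construct). The p-values measure the spread between libraries. The permutation tests were compared with those of scipy on random numbers. Fisher's test was run on simulated anti-FLAG lists with planted regions, called in every HMRwt-tg and no HMRdC-tg list. Such regions pass at the unadjusted level by construction. McNemar's test was not checked on simulated data. Alternatives were plain counts, other flanks (0, 5 or 20 kb), a 100 bp overlap, other minimum numbers of lists, lists cut to 465 lines, line numbers or ranks among shared regions in place of list position, and each library or pair left out.

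All 8 Hox genes are named, and regions are given in full when called in at least 9 of 18 lists, or otherwise when called in most lists of a Hox window. The region upstream of lab was named after its values had been seen. The members, gene lists and motifs were chosen with earlier results of these data known. Python 3.11.15, numpy 2.4.6, pandas 2.3.3 and scipy 1.17.1 were used.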

Additional observations from a re-analysis of the deposited data

Results flagged for a closer look

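Among 40 groups of 4 or 5 libraries screened for a sample far from the others, 9 had one. The usual rate of about 1 in 20 does not apply here, since the groups share lists and hold small counts. A lone peak among zeros is always flagged. In 4 of the 9 it was the 465-peak anti-FLAG list of HMRwt-tg (replicate 2), in which 1 peak is already 2.15 per 1000. It held 4.30 peaks per 1000 between Ubx and Abd-B, against 1.58 to 2.04 in the other 4 libraries, and 2.15 per 1000 in each of the pb, Antp and abd-A windows, where the others held 0.407 to 0.790, 0.425 to 0.814 and 0.226 to 0.425.

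Replicate 3 of anti-HMR in HMRwt-tg, the list of 9049 peaks, held 25 peaks between Ubx and Abd-B against 2 in each of the other 3 libraries, and 0.332 per 1000 in the Dfd window against 0. The other 3 were single peaks where the rest of the group had none: 0.314 per 1000 at Dfd in replicate 1 of anti-HMR in HMRdC-tg, 0.226 per 1000 at Scr in replicate 4 of anti-FLAG in HMRwt-tg, and 0.511 per 1000 at Scr in replicate 3 of anti-HMR in HMRdC-tg. The cause was not tested.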

How the results depend on the processing

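By peaks per 1000 and by presence, no Hox window or region passed an adjusted test under any of the alternatives run. By list position between constructs with anti-FLAG, 0 Hox regions passed on the scale of 100, adjusted or not. By line number 0 passed after adjustment and 4 at the unadjusted level, and by rank among shared regions 2 passed at both, scales chosen after seeing the data. By rank, 145 of all 392 regions passed after adjustment. Leaving out single lists, the rank difference ran from 89.95 to 128.8 at pb and from -104.95 to -56.15 at the Abd-B intron, with adjusted p-values of 0.0285 to 0.0713 and 0.0285 to 0.0558 (exact permutation tests). The difference between constructs from Ubx to Abd-B with anti-FLAG ran from -0.0141 (without replicate 5 of HMRwt-tg) to 0.666 per 1000 (without replicate 2) when single libraries were left out, and was -0.0887 without the NEBNext libraries. With anti-HMR it was 0.0629 with 10 kb added on each side, and leaving out single libraries gave -0.424 to 0.263, the latter without the longest list. The antibody difference there was -0.5 in plain counts, 0.806 with lists cut to 465 lines, 0.826 in the HMRwt-tg pairs alone and 0.85 in the HMRdC-tg pairs alone (exact permutation p = 0.375 and 0.125, where 4 pairs cannot go below 0.125). Without single pairs it ran from 0.592 to 1.09, and where the call was lost it was 0.592, 0.815, 0.812, 0.788 and 0.795.

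At the unadjusted level, Hox windows called between antibodies numbered 2 with 5 kb on each side (lab and Abd-B), 2 with 20 kb (Dfd and Abd-B) and 0 in plain counts, where the Abd-B difference was 1.38 peaks (p = 0.0625, exact permutation test), in place of 1. Between constructs, anti-HMR gave 0 to 1, the 1 being Abd-B without replicate 2 of HMRdC-tg. Of the regions, 1 was called between antibodies with cut lists, the Antp intron. The number of Hox regions was 25 without the longest list and 6 with cut lists, both chosen after seeing the data, and 7 rather than 11 were called in at least 12 lists. The labels do not pair the constructs. With libraries of neighbouring input numbers taken as a replicate block, chosen after seeing the data, the difference from Ubx to Abd-B of 0.162 with anti-FLAG was positive in 4 of 5 pairs (p = 0.875, exact sign-flip permutation test, at the least 0.0625) and that of -0.113 with anti-HMR in 2 of 4 (p = 0.875, exact sign-flip permutation test). In the Abd-B window HMRdC-tg was higher by 0.320 in 4 of 5 anti-FLAG pairs (p = 0.312, exact permutation test) and by 0.239 in 3 of 4 anti-HMR pairs (p = 0.25, exact permutation test). The cause of these changes was not tested beyond the lists named. Read depth is unknown, and list length differs by construct and antibody, so absence from a list is not absence of HMR.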
